A study of Homo sapiens with 6 samples.

Results

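The genes described here are the aryl hydrocarbon receptor gene AHR, its partner gene ARNT, its repressor gene AHRR and the targets CYP1A1, CYP1A2, CYP1B1, TIPARP and ALDH3A1. They are 8 of 19775 genes on the array, read by the 18 probe sets, of 54675 in all, that carry a single symbol among these names. The set was chosen by the control-line signals of CYP1B1, which was among the few genes higher at both levels of the compound, so its control-line values are given as a description with no test. Signals came from HMLE cells, an established line of immortalised human mammary epithelial cells, on Affymetrix U133 Plus 2.0 arrays. The control line carried a pBabe-shGFP retrovirus, which expresses a hairpin against GFP, and the Twist line a pBabe-Twist retrovirus, which expresses Twist, a factor that turns epithelial cells into mesenchymal ones. Each line was given the solvent DMSO or one of 2 levels of the compound Cmp302, for which the labels give a code name alone, with 1 array per group and 6 in all. All 6 groups were grown in the same medium with serum, insulin, hydrocortisone and EGF. By title and protocol the cells received 5 µM or 10 µM over 6 h, but by source name and treatment tag they received 2 µM over 4 h or over 8 h. Arrays are called by their titles, and dose and time cannot be told apart as the difference between the levels. The sources used here do not say whether either line was a single clone.

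AHR is a ligand-activated transcription factor that waits in the cytoplasm in a complex with HSP90 chaperones. Bound to a ligand such as dioxin, a plant indole or a tryptophan metabolite, it enters the nucleus, pairs with ARNT and binds DNA at elements with a GCGTG core. Cytochrome P450 genes of the CYP1 family are its best-known targets, and CYP1B1 is the member typically found in mammary epithelium and in tissues of mesenchymal origin. AHRR, itself a target, competes for ARNT and represses the pathway, and TIPARP, an ADP-ribosyltransferase, acts in a similar feedback. ALDH3A1 encodes an aldehyde dehydrogenase that is induced by AHR ligands in some tissues.

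Of the 8 genes, 6 had an entry in the RefSeq promoter table (GRCh38.p14), which lists 250 bases before and 50 after each annotated start. CYP1B1 and ALDH3A1 had none. The AHR, AHRR and CYP1A1 windows are printed because AHR and AHRR differed between the lines and CYP1A1 is the target most used as a sign of receptor activity. Capitals mark the core GCGTG, searched on both strands, where the other strand reads CACGC.
AHR, chr7:17298402-17298701, plus strand: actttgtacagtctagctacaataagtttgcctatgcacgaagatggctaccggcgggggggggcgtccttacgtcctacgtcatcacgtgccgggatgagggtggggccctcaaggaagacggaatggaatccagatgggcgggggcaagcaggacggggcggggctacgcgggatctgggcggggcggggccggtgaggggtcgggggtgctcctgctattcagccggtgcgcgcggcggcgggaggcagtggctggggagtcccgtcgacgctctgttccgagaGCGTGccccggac
AHRR, chr5:321464-321763, plus strand: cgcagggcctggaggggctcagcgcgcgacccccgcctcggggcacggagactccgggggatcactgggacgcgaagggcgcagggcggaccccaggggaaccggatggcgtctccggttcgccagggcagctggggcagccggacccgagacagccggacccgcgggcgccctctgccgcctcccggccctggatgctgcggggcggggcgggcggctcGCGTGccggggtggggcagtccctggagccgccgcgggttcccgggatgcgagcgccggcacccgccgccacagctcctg
CYP1A1, chr15:74725479-74725778, minus strand: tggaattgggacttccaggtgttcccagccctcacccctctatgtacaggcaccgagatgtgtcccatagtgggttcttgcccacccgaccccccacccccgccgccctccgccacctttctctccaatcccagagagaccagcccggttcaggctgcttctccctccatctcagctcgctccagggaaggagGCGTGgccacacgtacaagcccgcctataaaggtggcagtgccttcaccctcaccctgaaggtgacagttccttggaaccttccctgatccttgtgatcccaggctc
AHR held 1 core, starting 38 bases into the transcript, CYP1A1 held 1, starting at -57, and ARNT and CYP1A2 held 0. The AHRR core at -30 was part of the longer element TNGCGTG, which overlaps GCGTG and was found in no other window of these genes. The other of the 2 AHRR starts had 2 cores, and of the 3 TIPARP starts 1 had 2 cores, both on the opposite strand, and the others 0. A core was present in 36.5% of all 35116 promoter windows of this length and the longer element in 5.51%. These matches are a description of the letters and not of binding.

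Signals are on the log2 scale. Values under 3.71 log2 units, the median of all signals, lie at or below a floor, at which order and fold have no meaning. A gene was read by its brightest probe set, and a difference past 1 log2 unit is past 2-fold. With 1 array per group, a difference between 2 arrays has no replicate behind it, and precision is limited by the number of arrays. Between 11646 and 11841 genes lay above the floor on each array. The 3' minus the middle signal of the quality probe sets for GAPDH and ACTB, which goes up when RNA is degraded, averaged 0.28, 0.45 and 0.84 log2 units in the control line under DMSO, 5 µM and 10 µM. The Twist line gave 0.96, 0.36 and 0.45 in that order. Of 6 epithelial markers, all 6 were above the floor on every control-line array, and 4, CDH1, EPCAM, ESRP1 and KRT5, were below it on every Twist-line array. All 6 mesenchymal markers were above it in the Twist line and 5 in the control line. Of 3 hepatocyte markers, ALB and TTR were below it on all 6 arrays and APOA1 just above it, at 3.76 to 4.07 log2 units. All 3 fat cell markers were below it, and of 4 blood markers 3, with PTPRC, were, whereas CD14 had 4.35 to 4.81 in the control line. Of 3 endothelial markers, VWF and CDH5 were below it, and PECAM1 was above it on all 6 arrays, at 7.20 to 7.64 in the Twist line. TWIST1 itself, whose probe set may not see the viral cDNA, was higher in the Twist line by 1.06 ± 0.21 log2 units (SE, 6 arrays, limma adjusted p = 0.017).

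In both lines the receptor, its partner, CYP1B1 and TIPARP were well above the floor. AHR, ARNT, CYP1B1 and TIPARP were above it on all 6 arrays, and AHRR, CYP1A1, CYP1A2 and ALDH3A1 on some arrays only. Of the 18 probe sets, 9 were above the floor on all 6 arrays and 4 on 0. All 8 genes entered the tests, which took genes that passed the floor on 2 or more arrays. AHRR and ALDH3A1 passed through the Twist-line arrays alone and CYP1A1 through the 2 control-line arrays with Cmp302, so these genes had to differ in order to enter.

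CYP1B1, which encodes a P450 that oxidises polycyclic hydrocarbons and oestradiol, was read by 4 probe sets. All 4 carry the suffix _s_at, which is among those taken here as marking possible cross-hybridisation. On the brightest, 202437_s_at, the control line had 9.58 log2 units under DMSO, 10.73 at 5 µM and 11.13 at 10 µM. The Twist line had 9.95, 10.35 and 9.55 on the same arrays in order. In the control line both arrays with Cmp302 lay above DMSO and the 10 µM array was the highest of all 6. In the Twist line the 5 µM array was the highest and the 10 µM array the lowest. The control-line change was 1.16 log2 units (2.23-fold) at 5 µM and 1.56 (2.94-fold) at 10 µM, the values on which the set was chosen. CYP1B1 ranked 6th highest of 11968 genes at 5 µM and 2nd of 11975 at 10 µM. With GBP6 and MIR34A it was 1 of 3 genes past 2-fold higher at both levels, which is 0.0252% of 11909 genes. At 5 µM 0.0585% of genes were higher past 2-fold and at 10 µM 0.2%. The 3' to middle contrast of the control-line arrays went up in the same order, and its part in this difference was not tested.

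The other probe sets of CYP1B1 gave the same direction in the control line. On 202435_s_at the control-line signals were 7.91, 8.87 and 9.60 log2 units, changes of 0.97 and 1.70. On 202436_s_at they were 7.66, 8.55 and 8.93, changes of 0.90 and 1.28. At 5 µM these 2 probe sets lay just inside 2-fold and at 10 µM both were past it. The fourth, 202434_s_at, was below the floor on all 6 arrays, at 3.16 to 3.39.

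In the Twist line the CYP1B1 probe sets differed. Signals of 202435_s_at were 7.76 log2 units under DMSO, 9.11 at 5 µM and 8.53 at 10 µM. Those of 202436_s_at were 6.75, 9.41 and 8.33. Both were thus highest at 5 µM and lowest under DMSO, with changes of 1.35 and 0.78 on the first and 2.66 and 1.59 on the second, whereas the brightest probe set had changes of 0.40 and -0.40. All 3 were lower at 10 µM than at 5 µM, by 0.80, 0.58 and 1.08 log2 units in order of brightness. In the control line all 3 were higher at 10 µM than at 5 µM. With 6 arrays in a limma fit of line, level and their interaction, the Twist-line trend of CYP1B1 was -0.20 ± 0.19 log2 units per level (SE, adjusted p = 0.48). On the probe sets 202435_s_at and 202436_s_at, each tested by itself, it was 0.39 ± 0.25 (adjusted p = 0.30) and 0.79 ± 0.46 (adjusted p = 0.25). None of the 3 trends passed the threshold of 0.05, and a straight line describes poorly a signal that is highest at the middle level. The Twist DMSO array, the baseline of these changes, had the highest 3' to middle contrast of the 6, and its part was not tested.

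**Figure D1:**
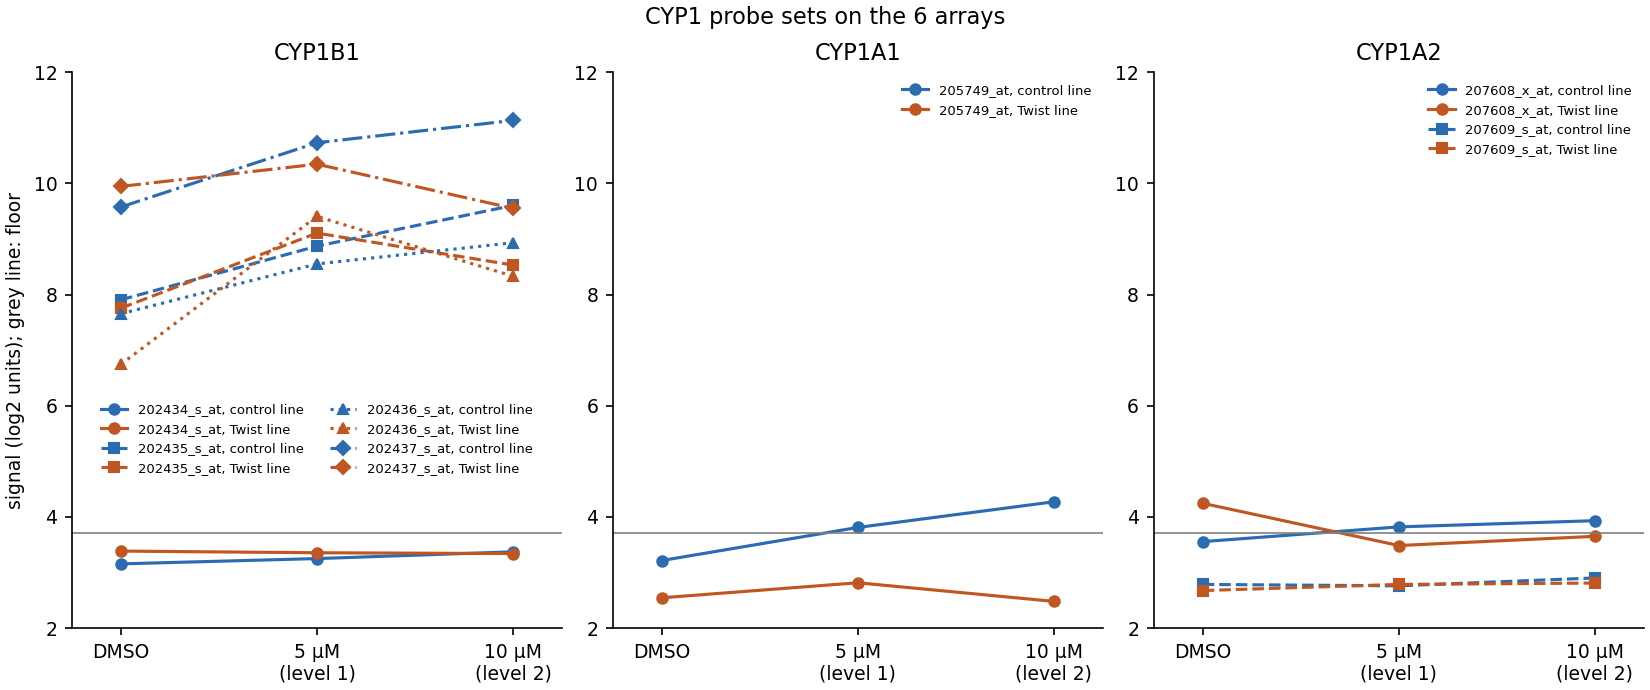
Signals (log2 units) of each CYP1 probe set on the 6 arrays, with blue for the control line, orange for the Twist line, a marker shape per probe set and a grey line at the floor of 3.71. Points are single arrays joined within a line. The 3 readable CYP1B1 probe sets go up across the control-line arrays and peak at 5 µM in the Twist line, whereas CYP1A1 and CYP1A2 stay near or under the floor.

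The difference of CYP1B1 between the lines depended on the treatment and on the probe set. On the brightest probe set the Twist line minus the control line was 0.37 log2 units under DMSO, -0.39 at 5 µM and -1.58 (2.99-fold lower) at 10 µM. On 202435_s_at these differences were -0.15, 0.24 and -1.07, and on 202436_s_at -0.91, 0.86 and -0.60. Only the 10 µM pair had the Twist line lower on all 3. Across treatments the fitted difference was -0.53 ± 0.39 (SE), which takes in the control-line arrays the choice used and is given with no test.

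CYP1A1, which encodes the P450 most strongly induced by AHR ligands in many cells, was close to the limit of measurement. Its single probe set read 3.22 log2 units under DMSO, 3.81 at 5 µM and 4.27 at 10 µM in the control line. The Twist-line arrays read 2.55, 2.82 and 2.48. Only the control-line arrays with Cmp302 were above the floor. Against the floor the control-line change was at least 0.10 at 5 µM and at least 0.56 (1.48-fold) at 10 µM, and it is given with no test. The 10 µM array was the higher of the 2 above the floor, as for CYP1B1. At 10 µM the Twist line was under the floor and the control line at least 1.48-fold higher. With the floor at the 35th percentile the Twist line differed by -1.38 log2 units in that pair, past 2-fold. Because the gene entered the fits through the arrays that the choice used, its difference between the lines is given with no test.

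CYP1A2, a P450 best known from liver, was read by 2 probe sets, and 207609_s_at was below the floor on all 6 arrays. On the other, 207608_x_at, the control line had 3.56, 3.82 and 3.93 log2 units and the Twist line 4.25, 3.49 and 3.65. The suffix of that probe set marks possible cross-hybridisation, and CYP1A1 and CYP1A2 are close in sequence, so the source of so weak a signal is uncertain. The Twist-line trend was -0.27 ± 0.08 per level (SE, adjusted p = 0.066) and the line difference 0.07 ± 0.17 (adjusted p = 0.82), neither past the threshold in limma.

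In a limma fit with treatment as a factor AHR was called higher in the Twist line, a call that some alternatives lost. AHRR and ALDH3A1 lay above the floor in the Twist line alone. Over all 12478 genes tested 13.7% were called higher and 14.9% lower, or 28.5% in either direction. The fit called 3 members higher, of which AHRR and ALDH3A1 had to be high in the Twist line to enter, so nothing is read from that count. Of the 4 genes above the floor on all 6 arrays, AHR was called, ARNT and TIPARP were not, and CYP1B1 is given with no test. The spread in this fit is that of the line difference over treatments, with 2 residual degrees of freedom, and not one between replicates.

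AHRR, the receptor's repressor, had the widest difference of the set. Its only probe set read 2.44, 2.43 and 2.19 log2 units on the control-line DMSO, 5 µM and 10 µM arrays, all below the floor. In the Twist line it read 6.27, 6.91 and 5.99. Every Twist-line array was thus above the floor and every control-line array below it. Set against the floor, AHRR was at least 5.88-fold higher under DMSO, at least 9.16-fold at 5 µM and at least 4.86-fold at 10 µM, past 2-fold in each treatment. In these pairs 11.9%, 12.1% and 14.8% of all genes measured were higher past 2-fold, and 13.6%, 12.6% and 14.1% lower. Because AHRR passed the filter through the Twist-line arrays alone, its test is taken from the limma fit of all 19775 genes with no filter, where the difference was 2.68 ± 0.23 log2 units (SE, adjusted p = 0.025). In that fit too every control-line signal of AHRR was raised to the floor, so the spread comes from the Twist line alone. The difference is a bound set by the floor. With the floor at the 65th percentile, near the Twist-line signals, it was 0.38. With Cmp302 the Twist line differed from DMSO by 0.64 at 5 µM and -0.28 at 10 µM, and the trend was -0.14 ± 0.20 per level (SE, adjusted p = 0.65).

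AHR itself had 10.85, 11.19 and 11.17 log2 units in the control line, against 11.96, 11.75 and 11.84 in the Twist line on its single probe set. The lowest Twist-line array lay above the highest control-line array. The difference was 1.11 (2.16-fold) under DMSO, 0.56 at 5 µM and 0.67 at 10 µM, so AHR was past 2-fold in the DMSO pair alone. The fitted difference was 0.78 ± 0.20 (SE, limma adjusted p = 0.039). It was 0.61 without the DMSO pair, 0.89 without the 5 µM pair and 0.83 without the 10 µM pair. Each of these fits has 1 residual degree of freedom, and no p is read from them. They did not agree on whether AHR was called. The call was lost in the limma fit of all genes (adjusted p = 0.10), although the difference stayed between 0.61 and 0.89 in all 11 alternatives. The Twist-line array had the higher 3' to middle contrast under DMSO and the lower one at 5 µM and 10 µM, and the part of this contrast in the difference was not tested. With Cmp302 AHR differed from DMSO by 0.35 and 0.33 in the control line, against -0.21 and -0.12 in the Twist line, where the trend was -0.06 ± 0.10 per level (SE, adjusted p = 0.72).

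ALDH3A1 read 3.55, 3.41 and 3.66 log2 units in the control line, under the floor, and 4.70, 4.57 and 4.36 in the Twist line, a little above it. The lines thus lay on opposite sides of the floor, which the entry filter favoured, so nothing is read from this. Counted from the floor the Twist line was higher by at least 0.99, 0.86 and 0.65 log2 units, and whether it was past 2-fold depends on the floor. With the floor at the 35th percentile the DMSO and 5 µM pairs differed by 1.15 and 1.16. It too entered through the Twist-line arrays alone. In the limma fit of all 19775 genes its difference was 0.83 ± 0.08 (SE, adjusted p = 0.030), against an SE of 0.11 with the filter. ALDH3A1 had all its control-line signals raised to the floor in both fits, so the spread comes from the Twist line alone. Within the Twist line it had the order DMSO, 5 µM, 10 µM from high to low, with a trend of -0.17 ± 0.06 per level that was not called (SE, adjusted p = 0.086).

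TIPARP was above the floor throughout and stayed inside 2-fold. It read 11.79, 12.08 and 11.95 log2 units in the control line, against 12.09, 12.48 and 12.15 in the Twist line. In each line the 5 µM array was the highest and the DMSO array the lowest, as for AHRR at 5 µM in the Twist line. The Twist line was above the control line at every treatment, by 0.30, 0.40 and 0.20. The fitted difference of 0.30 ± 0.17 (SE, limma adjusted p = 0.27) and the Twist-line trend of 0.03 ± 0.13 (adjusted p = 0.91) were not called.

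**Figure D2:**
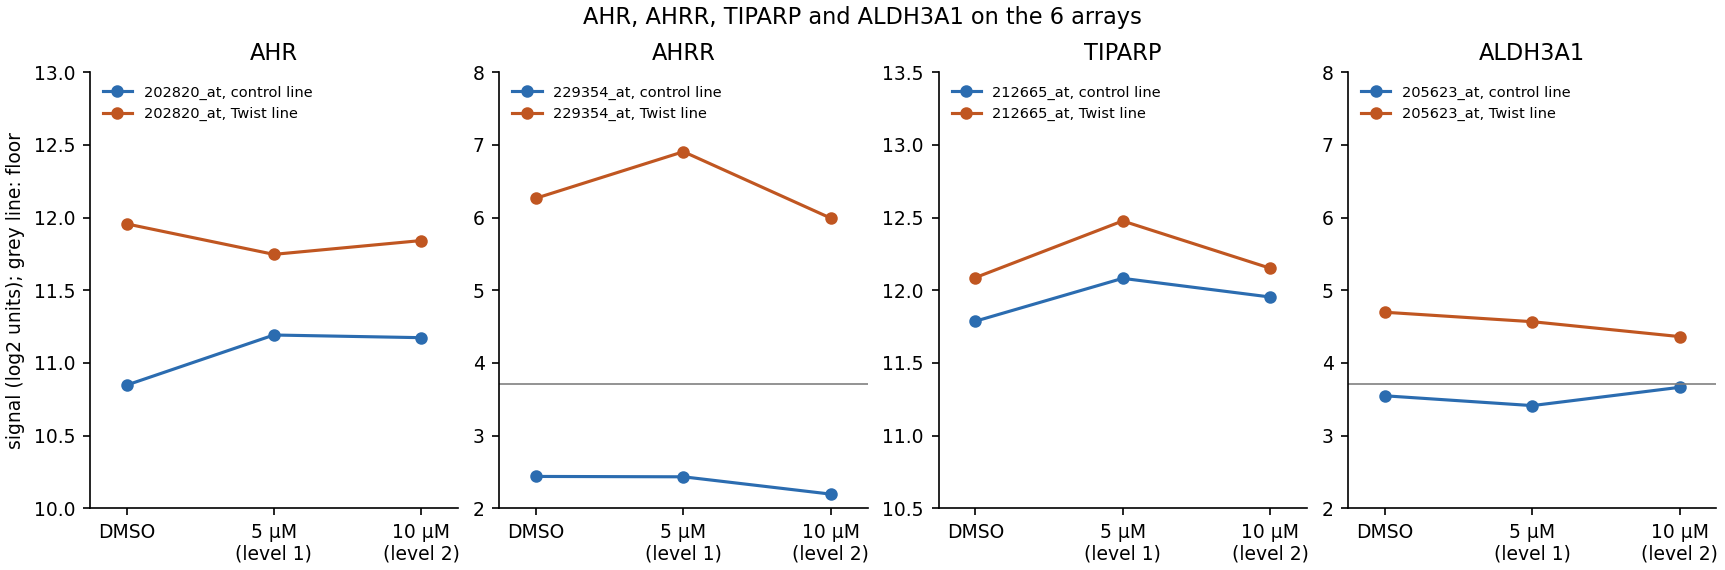
Signals (log2 units) of AHR, AHRR, TIPARP and ALDH3A1 on the 6 arrays, 1 probe set each, blue for the control line and orange for the Twist line, with points for single arrays joined within a line and a grey line at the floor of 3.71 where it falls in the panel. Vertical axes differ in start, and those of AHR and TIPARP span a narrower range. The Twist-line points lie above the control-line points in each panel, from 0.20 log2 units for TIPARP at 10 µM to at least 3.20 for AHRR at 5 µM.

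**Figure D3:**
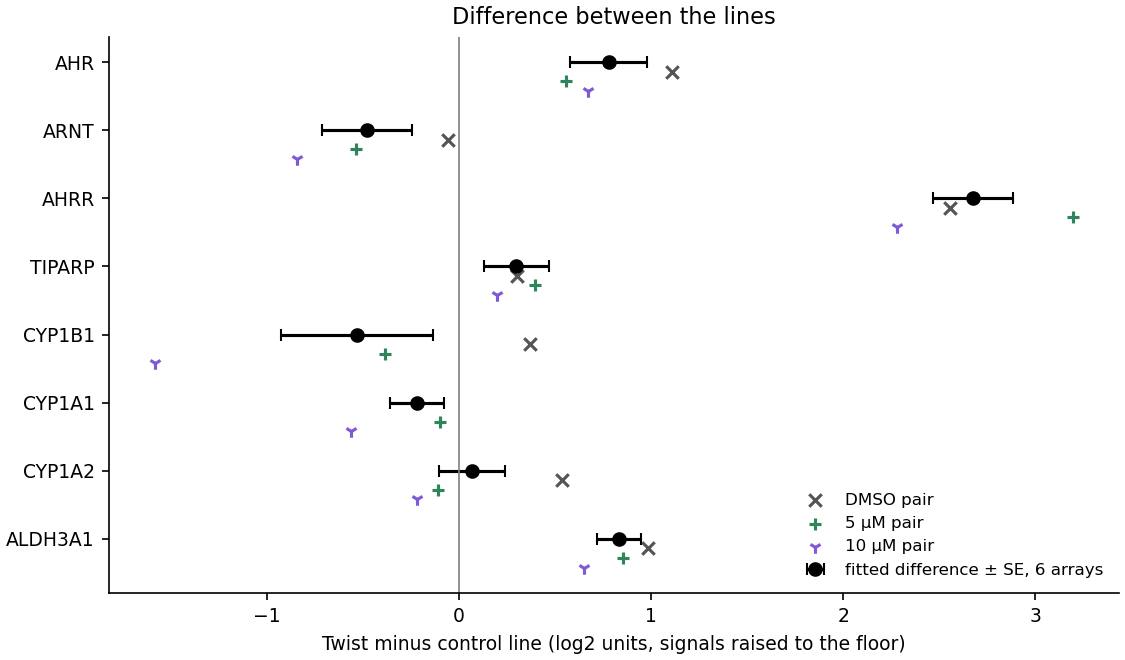
Twist minus control line (log2 units, signals under the floor raised to it) for the 8 genes. Black points with bars are the fitted difference ± SE over 6 arrays, and the crosses and other marks are the single DMSO, 5 µM and 10 µM pairs. AHRR, ALDH3A1, AHR and TIPARP lie to the right of 0 in every pair, and CYP1B1 moves from 0.37 to -1.58 across the pairs.

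ARNT, the partner that AHR shares with hypoxia-inducible factors, was read by 7 probe sets, of which 4 were above the floor on all 6 arrays, 1 on 3 arrays and 2 on none. On the brightest, 231016_s_at, the control line had 10.21, 10.34 and 10.41 log2 units and the Twist line 10.15, 9.81 and 9.57. The lines overlapped under DMSO, with a difference of -0.06, and were apart by -0.54 at 5 µM and -0.84 at 10 µM. On 218221_at the control line had 9.47, 9.82 and 9.78 and the Twist line 9.82, 8.87 and 8.63. Within the Twist line both probe sets were lower at each step from DMSO to 10 µM, and in the control line both were above DMSO. In the control line the changes were 0.14 and 0.21 on the first and 0.36 and 0.32 on the second. In the Twist line they were -0.34 and -0.58 on the first and -0.95 and -1.19 on the second, the last past 2-fold (2.27-fold lower).

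The remaining ARNT probe sets split. On 230619_at the Twist-line changes were -0.31 and -0.37, and on 218222_x_at, the dimmest of the 4 and one with a cross-hybridisation suffix, they were 0.13 and 0.19. The brightest, 231016_s_at, has a suffix taken here as such too, and 218221_at and 230619_at have none. The Twist-line trend of ARNT was -0.29 ± 0.09 log2 units per level on the brightest probe set (SE, limma adjusted p = 0.073), short of the threshold. Each probe set tested by itself over 24611, 218221_at fell by 0.59 ± 0.14 per level (SE, adjusted p = 0.037), and the other 3 were not called, with adjusted p from 0.069 to 0.47. This test by probe set was chosen after the values were seen. It called 21.5% of all probe sets, against 1 of 14 for these genes. By gene, 10.9% of all genes rose and 11.3% fell along the Twist-line trend, and 0 of 8 members were called by limma. At an unadjusted p under 0.05, 3 members would pass, ARNT, CYP1A2 and ALDH3A1, with limma p of 0.023, 0.019 and 0.031. So would 5284 of all 12478 genes tested, so nothing is read from these 3. Without the Twist 5 µM array AHRR, CYP1A2 and ALDH3A1 were called lower, but the spread in that fit comes from the control line alone, where AHRR and ALDH3A1 are at the floor on every array, so nothing is read from these calls. Past 2-fold from DMSO in the Twist line lay 9.34% of genes at 5 µM and 16.5% at 10 µM, and 0 of 7 members measured there. That 0 rests on the brightest probe sets. On 202436_s_at CYP1B1 was past 2-fold at both levels, on 202435_s_at at 5 µM, and ARNT on 218221_at at 10 µM.

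**Figure D4:**
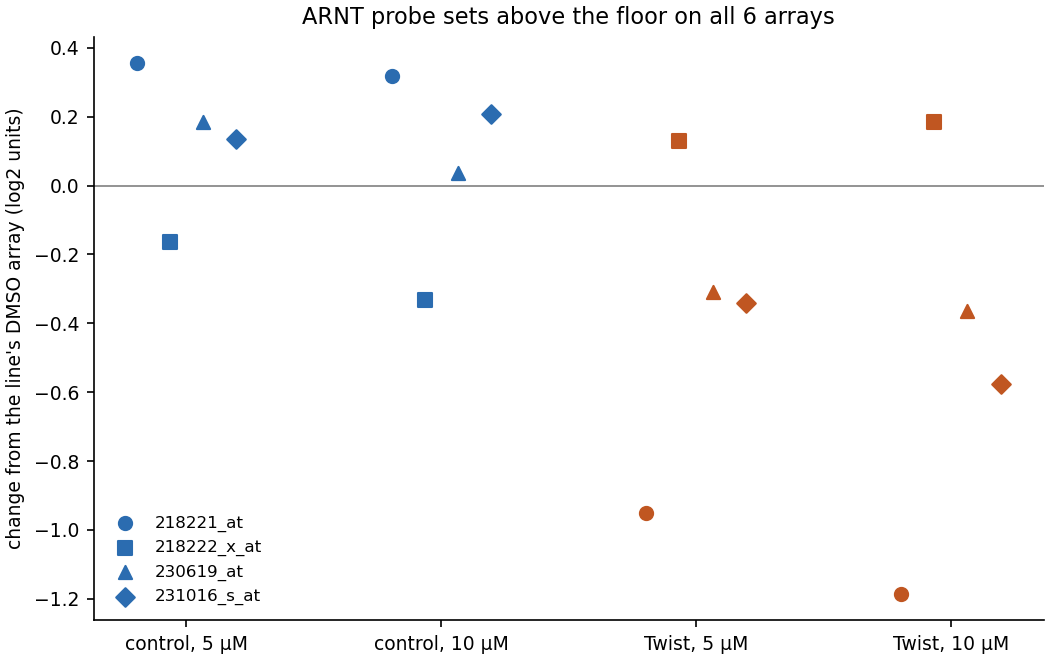
Change from the DMSO array of the same line (log2 units) for the 4 ARNT probe sets above the floor on all 6 arrays, blue for the control line and orange for the Twist line, a marker shape per probe set and 1 point per array. Of the 4, 3 lie above 0 in the control line and below 0 in the Twist line, down to -1.19 on 218221_at, and 218222_x_at lies on the other side in both.

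Other parts of the pathway were read from lists drawn up for this purpose. Calls along the Twist-line trend in these lists depend on the Twist 10 µM array and on the filter, since the limma fit without that array called 0 genes on the whole array (5276 at an unadjusted p under 0.05) and the fit of all 19775 genes 8 higher and 10 lower. The counts are to be read against all genes tested, of which 13.7% rose and 14.9% fell between the lines and 10.9% rose and 11.3% fell along the trend. In the control line ESR1 was past 2-fold lower at 10 µM (-1.11 log2 units), and 0 other measured genes of the 9 lists were past 2-fold at either level. Over all genes 0.0668% were that much lower at 5 µM and 0.259% at 10 µM. The receptor complex list, with HSP90AA1, HSP90AB1 and PTGES3, which help hold AHR in the cytoplasm, had 7 measured genes. Between the lines 1 rose, the ubiquitin ligase scaffold gene CUL4B (0.74 ± 0.17 log2 units, SE, limma adjusted p = 0.030), and 1 fell, the kinase gene SRC (-1.57 ± 0.16, adjusted p = 0.0013), and 0 were called along the Twist-line trend. The chaperone gene PTGES3 and the ubiquitin ligase gene STUB1 had its widest Twist-line changes at 10 µM, -0.44 and 0.30. Its median difference between lines was -0.06. Among 10 tested genes of the other bHLH-PAS factors and their coactivators, the family of AHR and ARNT, 3 rose and 2 fell between lines, with a median of 0.01. The clock genes BMAL2 (-1.79 ± 0.21, adjusted p = 0.0024) and NPAS2 (1.76 ± 0.29, adjusted p = 0.0082) had the widest differences. Along the Twist-line trend the hypoxia factor gene EPAS1 and BMAL1 rose and the coactivator gene NCOA2 fell by 0.63 ± 0.15 per level (SE, adjusted p = 0.040). Of 10 coregulators and partners, 1 rose and 2 fell between lines with a median of -0.09. Those that fell were the corepressor gene NRIP1 (-1.21 ± 0.19, SE, adjusted p = 0.0070) and the oestrogen receptor gene ESR1. ESR1 was under the floor on all Twist-line arrays and had to differ in order to enter. Of the 10, 1 rose along the trend, the NF-kB subunit gene RELA (0.66 ± 0.12 per level, SE, limma adjusted p = 0.026). The tumour suppressor gene RB1 had the next widest Twist-line change at 10 µM, -0.74, and was not called (adjusted p = 0.074).

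Genes outside the set that respond to AHR in some tissues gave counts in both directions. Of 17 tested, 2 rose and 6 fell between lines with a median of -0.10, and 6 rose and 1 fell along the Twist-line trend with a median of 0.21 per level, against 0.00 over all genes. Over all genes 13.7% rose and 14.9% fell between lines, and 10.9% and 11.3% along the trend. The widest line differences were those of IVL, a keratinocyte envelope gene under the floor on all Twist-line arrays and at 9.27 to 9.62 log2 units in the control line, and of IL1B, at 9.47 to 9.68 in the control line and 4.62 at most in the Twist line. IVL had to differ in order to enter. The 6 that rose were IL6, HES1, PTGS2, SLC7A5, STC2 and IL1B, which are also known as cytokine, Notch, prostaglandin, amino acid transport, stress-hormone and inflammasome-linked genes. Their widest changes were those of IL6 (2.69 ± 0.31 per level, SE, limma adjusted p = 0.011) and HES1 (2.35 ± 0.55, adjusted p = 0.037). HES1 lay below the floor on the Twist DMSO array, the one with the highest 3' to middle contrast, and at 8.34 and 8.40 log2 units with Cmp302, against 9.43 to 9.80 in the control line. The gene that fell was the cell cycle inhibitor gene CDKN1B. NQO1, a quinone reductase of the classical AHR battery named after its values were seen, had 12.40, 12.46 and 12.50 log2 units in the control line, against 13.15, 12.93 and 12.74 in the Twist line. Neither its line difference of 0.48 ± 0.18 (SE, adjusted p = 0.12) nor its trend of -0.20 ± 0.08 (adjusted p = 0.10) was called.

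Enzymes that make or break down tryptophan-derived ligands had 3 genes higher and 2 lower of 8 tested between lines, with a median of 0.26, against 13.7% and 14.9% over all genes. KMO (1.60 ± 0.37, SE, limma adjusted p = 0.027) and the amine oxidase gene MAOA (-1.48 ± 0.20, adjusted p = 0.0040) differed most. KMO, an enzyme of the kynurenine path, rose along the Twist-line trend by 0.66 ± 0.16 per level (SE, limma adjusted p = 0.041). KYNU, of the same path, was called too, at 0.60 ± 0.13 per level. It was below the floor on 4 of the 6 arrays and reached 4.90 log2 units on the Twist 10 µM array. KYNU entered through the Twist-line arrays with Cmp302 alone, which favoured a rise, so nothing is read from its call. Among other xenobiotic receptors and enzymes 3 rose and 1 fell of 9 between lines with a median of -0.16. The sulfotransferase gene SULT1E1 rose most, by 7.60 ± 0.27 (SE, adjusted p = 3.16e-05), and SULT1A1 fell by 1.37 ± 0.23 (adjusted p = 0.0099). Along the trend 0 rose and 2 fell, the acetyltransferase gene NAT1 (-0.76 ± 0.13, adjusted p = 0.022) and RXRA (-0.47 ± 0.10, adjusted p = 0.034).

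The families of the members were set beside them. Of 44 other cytochrome P450 genes on the array 14 were tested, and 1 was called higher and 7 lower between lines. Of these, the 1 higher and 5 of the 7 lower were at the floor on every array of one line and had to differ in order to enter, as was so of 345 of the 1706 higher and 518 of the 1855 lower calls over all genes. CYP27B1, the vitamin D hydroxylase gene, had 9.71 to 9.82 log2 units in the control line and was under the floor in the Twist line. CYP27C1, above the floor on all 6 arrays, fell by 2.90 ± 0.24 (SE, limma adjusted p = 6.72e-04). Along the Twist-line trend CYP2R1 rose and CYP2U1 fell. Of 14 tested ALDH genes 3 rose and 3 fell between lines (median 0.11), among them ALDH3B1 (2.86 ± 0.23, SE, limma adjusted p = 5.90e-04) and ALDH3B2, relatives of ALDH3A1. ALDH3B2 was under the floor on all Twist-line arrays and had to differ in order to enter. Along the trend 0 rose and 1 fell, ALDH18A1 (-0.42 ± 0.10 per level, SE, adjusted p = 0.039), and ALDH5A1 had the widest Twist-line change at 10 µM, -1.02. Of 12 tested PARP genes, the family of TIPARP, 1 rose between lines, PARP3 (1.02 ± 0.14, SE, limma adjusted p = 0.0038), and 0 fell, with a median of 0.12. PARP12 had the widest difference, -1.23, and was not called (adjusted p = 0.067). Along the trend PARP6 (0.65 ± 0.13 per level, SE, adjusted p = 0.028) and PARP8 rose and PARP10 fell.

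Of the members above the floor on all 6 arrays, AHR and CYP1B1 spanned at least 1 log2 unit, and the genes nearest to them in pattern were taken by the root mean square difference of centred signals over the 6 arrays among 10786 others. Nearest to AHR were AZI2 (0.034 log2 units, Pearson's r = 0.997 over 6 arrays), ZNF302 (0.053, r = 0.992) and ZNF445 (0.056, r = 0.991). AZI2 read 10.39, 10.63 and 10.65 log2 units in the control line, against 11.49, 11.23 and 11.34 in the Twist line. No gene came as close to CYP1B1, for which the nearest were TRMT2B (0.31, r = 0.952), ENDOV (0.32, r = 0.971) and CGAS (0.34, r = 0.882). These values describe likeness over 6 arrays that share their lines and labelling, and carry no test.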

How the data were processed

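Affymetrix U133 Plus 2.0 arrays were hybridised with total RNA of the 6 samples, per the labels. The submitters' processing notes name GCOS 1.2, with background correction, summarisation and normalization not given in the sources used here. Values from 1.12 to 14.8, with column medians of 3.69 to 3.74, were deposited by the authors and taken, from that range, as log2 signals, as no label used here names the unit. Arrays were shifted (by -0.03 to 0.01) to the mean array over the brighter probe sets, and signals under the median, 3.71, were raised to it. After removing 62 controls from 54675 probe sets, 41091 with 1 symbol in the platform annotation gave 19775 genes, each read by its brightest probe set. Fits used limma 3.58.1 (R 4.3.3) with a trended eBayes prior, and p-values were adjusted by Benjamini-Hochberg across the 12478 genes that exceeded the floor on 2 or more arrays, with a threshold of 0.05. One fit took line with treatment as a factor, the other line, level and their interaction. Both were tested on simulated data. The text names all members, of each list the 2 genes with the widest line difference and the 2 with the widest Twist-line change at 10 µM, and the 3 genes nearest in pattern to a member. EPAS1, NQO1, PTGS2, SLC7A5, STC2, CDKN1B, PARP8 and PARP10 were named after their values were seen. Members and lists were chosen with earlier results of these data known. Alternatives were another scaling, floor, probe set summary, filter, level coding or set of arrays.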

Additional observations from a re-analysis of the deposited data

Results flagged for a closer look

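In AHR and ARNT both arrays with Cmp302 lay above DMSO in the control line and below it in the Twist line. AZI2, ZNF302 and ZNF445 had this order too, but they were picked as nearest to AHR on these arrays, so nothing is read from it. The share of this order over all genes was not counted. For AHR the changes were 0.35 and 0.33 log2 units at 5 µM and 10 µM for the control line, against -0.21 and -0.12 for the Twist line. For ARNT, on its brightest probe set, they were 0.14 and 0.21 for the control line, against -0.34 and -0.58 for the Twist line. All are inside 2-fold, each line has 1 array per level and a shared DMSO array, and the difference between the lines was not tested. The Twist DMSO array, the baseline in that line, had a 3' to middle contrast of 0.96 log2 units, the highest of the 6, and its part was not tested.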

How the results depend on the processing

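With 1 array per group, depth in arrays means signal over background, and it limits AHRR, ALDH3A1, CYP1A1 and CYP1A2, which lie near or under the floor. No paired analysis by replicate number was possible because each group has 1 sample, beyond the pairing of the lines by treatment that the line fit already holds. Counts of members below are out of at most 8, stand beside those of all genes called, and nothing is read from them. With the floor at the 35th percentile 1 member of 2127 genes was lower between lines (CYP1A1, which entered through the arrays that the choice used). Past 2-fold, 2 members of 25 genes were higher at 10 µM in the control line. Between lines 2 of 1608 were past 2-fold higher at 5 µM and 2 of 1916 lower at 10 µM. With the floor at the 65th percentile, where AHRR lost its call, 1126 genes and 1 member were higher between lines. In the control line 3 genes were higher and 5 lower at 5 µM. Past 2-fold higher between lines were 1 member of 1159 genes under DMSO, 0 of 1140 at 5 µM and 0 of 1453 at 10 µM. With the median over probe sets, ARNT took the values of 218222_x_at, the middle of its 7 probe sets. It thus turned to 0.41 between lines and to 0.0925 per level in the Twist-line trend, as that probe set gave by itself. CYP1B1 turned to a trend of 0.59. Then 0 members of 5 genes were past 2-fold higher at 5 µM in the control line, and 0 of 1410 were lower between lines at 10 µM. In the Twist line 1 member (CYP1B1) was past 2-fold higher at 5 µM, of 428 genes, and at 10 µM, of 840. Counts of lower genes were then 2 and 19 for the control line but 315 and 652 for the Twist line. Probe sets of cross-hybridisation suffixes were also left out, which removes CYP1B1 from the array. Then 0 members were higher at either level of the control line, against 13 and 44 genes. Of 1272 genes that fell along the trend 1 was a member (ARNT), as was 1 of 936 past 2-fold lower at 10 µM in the Twist line. Quantile normalization left 19 genes lower at 10 µM in the control line. With no filter 831 genes were higher between lines, and the trend called 8 higher and 10 lower. Without the DMSO pair 3722 genes were higher and 3833 lower between lines, with 3 members lower (ARNT, and CYP1A1 and CYP1B1, for which it is no test since the choice used these arrays), and CYP1A2 turned to -0.17. Without the 5 µM pair 1065 genes were higher. Both of these fits have 1 residual degree of freedom, so nothing is read from their calls. With the levels coded 0, 1 and 1, 2231 genes fell along the Twist-line trend, 1 member fell (CYP1A2), and the trends of AHRR and CYP1B1 turned to 0.18 and 0.0025. On the Twist-line arrays alone limma called 0 higher and 0 lower (2188 at an unadjusted p under 0.05). Leaving out 1 Twist-line array with Cmp302 in turn gave 0 to 1477 genes higher and 0 to 1748 lower, 0 to 3 members lower (on 1 residual degree of freedom, with AHRR and ALDH3A1 at the floor in the control line), and trends of -0.14 to 0.64 for AHRR and -0.20 to 0.40 for CYP1B1. Apart from that of ARNT under the median over probe sets, the cause of these shifts was not tested. The deposited scaling changed no call of a member.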
